A study of Triticum aestivum with 45 samples.

Results

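The stretch of wheat chromosome 1A described here holds every gene whose identifier lies between TraesCS1A01G270000 and TraesCS1A01G430000, read along the order of the identifiers. It was chosen by the differences in read counts already seen between the wheat line DH2 and the other genotypes, so the comparisons of DH2 with the other genotypes are descriptions and carry no test for these genes. The range takes in 1601 of the 110790 listed genes, and 922 of the 1601 passed the filter on low counts (57.6%, against 56.9% of all genes). A further 203 had no count in any library and 476 had counts but fell below the filter. The files hold no positions, names or sequences, so the place on the long arm was not checked and each gene is given by its identifier.

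RNA was sequenced from spikelets of bread wheat (Triticum aestivum) of 3 genotypes. DH2 is the doubled haploid line GS-1-EM0168, with CM82036 as donor and Superb as the recurrent parent, and DH1 is GS-1-EM0040, with CIMMYT11 as donor and the same recurrent parent. Superb is a Canadian spring wheat cultivar. Spikes at anthesis were sprayed with 100 µM methyl jasmonate (MeJA), 100 µM salicylic acid (SA), 100 µM ethephon, which releases ethylene, or water, and were taken at 8 h; untreated spikes were taken at 0 h. Each of the 15 combinations had 3 libraries, which gave 15 libraries per genotype and 45 in all. Each line is a single doubled haploid, so a difference from Superb belongs to that line and not to its donor in general. Untreated spikelets differ from the sprayed ones in time as well as in the spray. Spikelet identity could not be checked against marker genes because the identifiers are not paired with names. In bulk tissue such as spikelets, fewer cells of a type and less RNA per cell cannot be told apart.

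Bread wheat is an allohexaploid, with related A, B and D genomes, and most genes on chromosome 1A have copies, called homoeologs, at corresponding places on 1B and 1D. A line made by crossing a donor to a recurrent parent and then doubling the chromosomes of a haploid plant carries unbroken donor segments in an otherwise recurrent background. Genes inside such a segment can differ in sequence or be present in only one parent, and either can change a read count made against a common reference genome. Jasmonates are hormones of wounding and defence.

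The 45 libraries held between 6446374 and 17940396 counts (median 11251553), and genes of the stretch received 90531 to 282053 counts per library, or 1.40% to 1.58% of the total. Levels below are CPM, counts scaled to library size with TMM factors. Some libraries carried signal that their label would not give. To find it, genes were listed that averaged at least 1 CPM in one line and at most 5% of that level in the other genotypes, or the reverse, with both ethephon libraries named next left out. Superb ethephon replicate 1 reached 26.6% of the DH1 level over the 82 genes seen only in DH1, and the other 14 Superb libraries reached 0.620% to 1.47%. DH1 ethephon replicate 1 reached 14.7% of the DH2 level over the 102 genes seen only in DH2, and the other 14 DH1 libraries reached 0.616% to 1.40%. DH2 water replicate 1 and DH2 untreated replicates 2 and 3 carried RNA of genes that the other 12 DH2 libraries nearly lacked, as described below. The source of this signal was not tested, and results are given with and without these libraries wherever they matter.

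Genes that differed between DH2 and Superb were spread along the whole stretch, went both ways in nearly equal numbers and ran past its upper limit to the end of the chromosome. In the mean over 5 conditions, 274 of 922 genes (29.7%) passed an adjusted p of 0.05, where 10.7% of all tested genes did. Of these, 144 were higher (4.35% of all tested genes) and 130 lower in DH2 (6.39%). Against DH1, 335 genes (36.3%) passed, where 20.5% of all tested genes did, with 171 higher (8.79% of all) and 164 lower in DH2 (11.7%), and 94 had a change of at least 1 (4.14%). In the rest of 1A, which takes in the genes beyond the upper limit, 241 of 1749 tested genes (13.8%) passed against Superb. Of these, 71 had a change of at least 1 (4.06%, beside 2.08% of all tested genes). Against DH1, 362 genes of the rest of 1A passed (20.7%), 87 with a change of at least 1 (4.97%). The shares inside the stretch describe its choice and are no test of it. Both comparisons share the DH2 libraries. Without the 5 libraries that stand apart, 223 genes differed from Superb, 108 higher and 115 lower (8.25% of all tested genes), and 292 differed from DH1. Leaving libraries out can move the calls of all genes, so the 292 is not read as a change of the stretch.

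The block was traced by a score along 1A that rose at each gene past the threshold in DH2 against Superb with a change of 1 or more on the log2 scale, and fell at every other tested gene. The score picked out a large and a small stretch of 1A. The large one ran over 1570 listed and 874 tested genes, with TraesCS1A01G289200 first and TraesCS1A01G446100, the last listed gene of 1A, at its end. It held 92 genes with such a change, 37 higher and 55 lower in DH2, and 270 genes (30.9%) with a change of any size. The small one lay near the other end of the chromosome, between TraesCS1A01G048400 and TraesCS1A01G058200, with 10 such genes among 54 tested, 4 higher and 6 lower. TraesCS1A01G048400 averaged 4.92 ± 1.19 CPM in DH2 (SD, n = 15); all 16 of its counts in DH1 lay in DH1 ethephon replicate 1, at 0.945 CPM, and it was not counted in Superb.

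**Figure D1:**
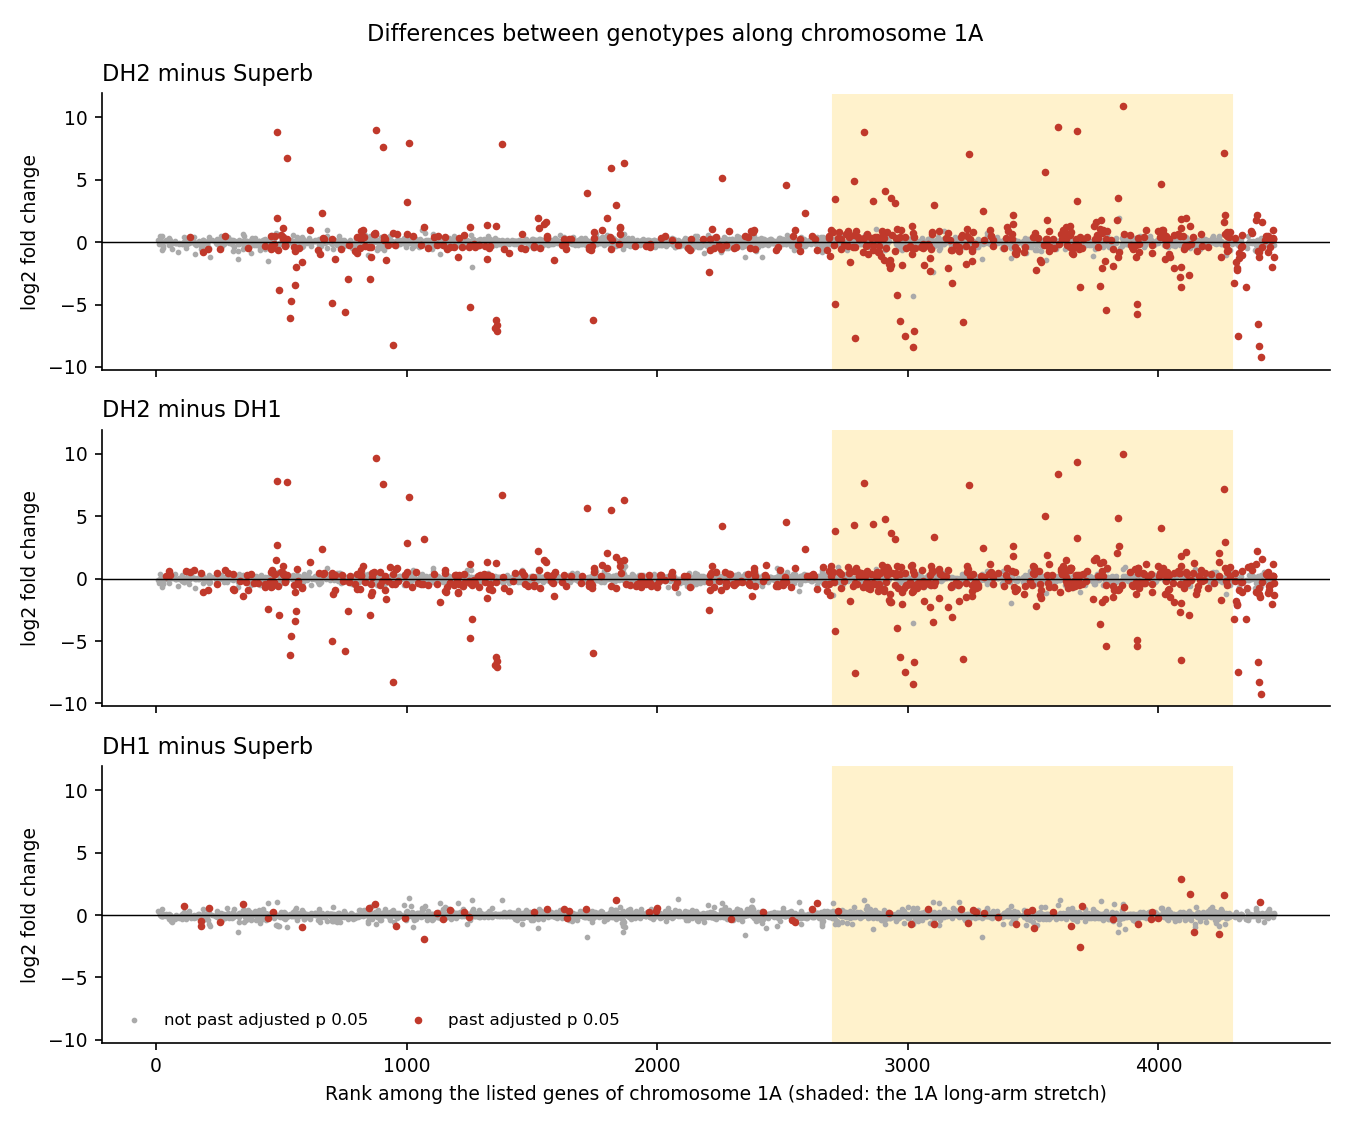
Log2 fold change of each tested gene of chromosome 1A (vertical axis) by its rank among the listed genes of the chromosome (horizontal axis), for DH2 minus Superb, DH2 minus DH1 and DH1 minus Superb, with genes past an adjusted p of 0.05 coloured and the stretch shaded. Coloured genes of DH2 lie above and below 0 over the whole shaded stretch and beyond its right edge, and 30 of the 922 shaded genes are coloured in DH1 minus Superb.

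The lower edge was soft. TraesCS1A01G289200 averaged 1.74 ± 1.15 CPM in DH2, 2.79 ± 2.11 CPM in DH1 and 3.45 ± 2.19 CPM in Superb (SD, n = 15 each), and the ranges overlapped. Other settings placed the edge between TraesCS1A01G268900 and TraesCS1A01G290600. Counting any gene past the threshold as a hit, whatever its size, gave a piece of 173 listed genes, between TraesCS1A01G285400 and TraesCS1A01G302600. Scoring DH2 against DH1 gave a piece of 129 listed genes, between TraesCS1A01G289600 and TraesCS1A01G302400, both inside the block. Only the piece with most genes of the stretch is given. The fall per gene was 3 times the share of hits over all tested genes, 10.7% for any call and 4.14% against DH1. That is more than the share of hits in the stretch, 29.7% and 10.2%. Short pieces thus largely follow from the setting and do not measure the block.

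In successive windows of 50 tested genes, the 4 before the lower limit held 2, 4, 5 and 6 genes that differed between DH2 and Superb. The first 4 inside it held 15, 15, 19 and 20. Against DH1 the last window before the limit held 9 such genes and the first 4 inside it 11, 22, 20 and 27. The windows were counted from the limit itself, so they do not place the edge. Inside, the share was uneven. It reached 21 of 50 between TraesCS1A01G315600 and TraesCS1A01G326000 and 25 of 50 between TraesCS1A01G425400 and TraesCS1A01G437100, a window with 22 of its genes inside the stretch. It dropped to 4 of 50 between TraesCS1A01G415900 and TraesCS1A01G425200, where 27 tested genes in a row did not pass. The longest unbroken run of genes that passed was 8, between TraesCS1A01G292400 and TraesCS1A01G294800.

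**Figure D2:**
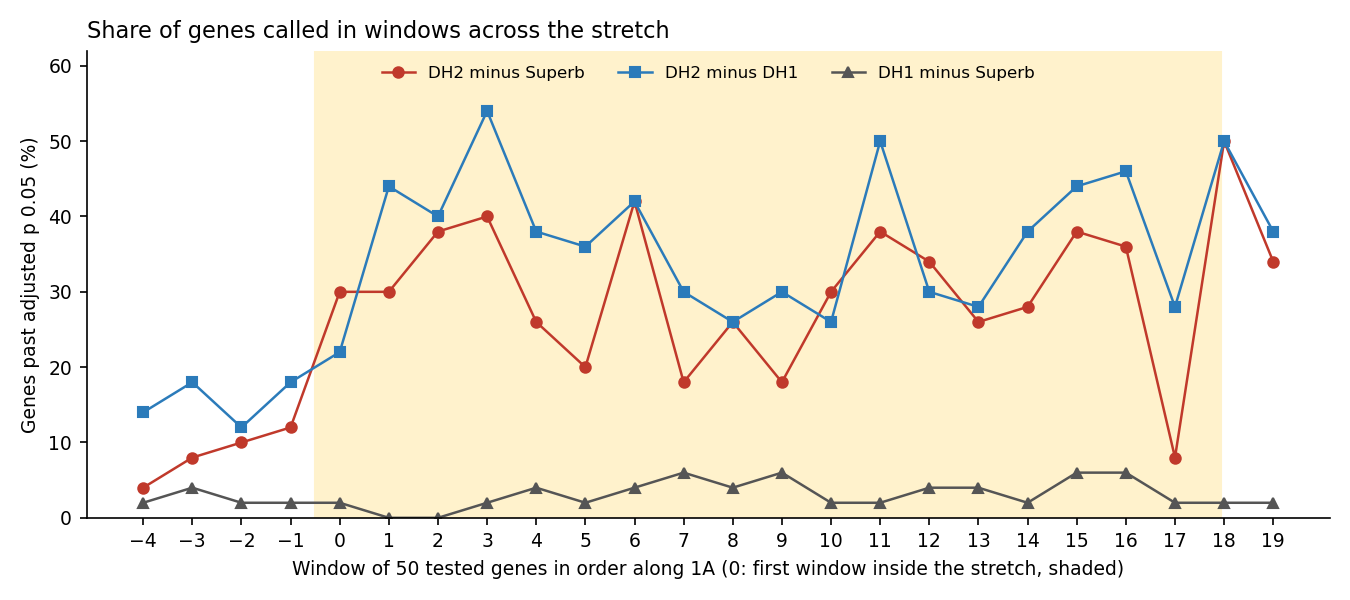
Share of genes past an adjusted p of 0.05 (vertical axis, percent) in windows of 50 tested genes along 1A (horizontal axis, window 0 is the first inside the shaded stretch), with a line each for DH2 minus Superb, DH2 minus DH1 and DH1 minus Superb. DH2 minus Superb lies at 4% to 12% in the 4 windows before the stretch, at 30% in the first inside it and at 8% in the window that starts at TraesCS1A01G415900.

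At the limits of the range, 8 of the 25 nearest tested genes inside the lower limit and 5 of the 25 outside it passed in DH2 against Superb. At the upper limit 11 of 25 inside and 13 of 25 outside did, and the 86 tested genes beyond belonged to the same block. TraesCS1A01G270000, first inside the lower limit, averaged 3.69 ± 0.974 CPM in DH2, 2.60 ± 0.833 CPM in DH1 and 2.08 ± 0.600 CPM in Superb, and TraesCS1A01G269600, just outside it, 2.61 ± 1.78, 1.92 ± 1.31 and 2.30 ± 1.63 CPM (SD, n = 15 each). TraesCS1A01G429400, last inside the upper limit, averaged 61.3 ± 10.6 CPM in DH2, 57.4 ± 8.85 CPM in DH1 and 56.8 ± 9.72 CPM in Superb. TraesCS1A01G430200, just beyond, averaged 0.170 ± 0.314 CPM in DH2, 1.51 ± 0.612 CPM in DH1 and 1.51 ± 0.395 CPM in Superb, and its highest DH2 value, 1.26 CPM, was that of DH2 untreated replicate 3.

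Most differences were small. The median log2 fold change of DH2 minus Superb over the 922 genes was -0.01, beside 0.00 over all tested genes, and the median of its size was 0.203, beside 0.119. Among genes that passed, the median was 0.64 where DH2 was higher and -0.69 where it was lower. By size, 56 higher and 52 lower genes had a change under 0.5 and 50 higher and 34 lower genes one between 0.5 and 1. Another 18 higher and 21 lower genes lay between 1 and 2, 10 higher and 12 lower between 2 and 4, and 10 higher and 11 lower at 4 or more. A change of at least 1 was seen in 82 genes (2.08% of all tested genes). With the 922 genes sorted on mean level into 3 equal classes, 28.7% of the low class, 29.6% of the middle class and 30.8% of the high class passed. A change of at least 1 was seen in 52 genes of the low class, 18 of the middle class and 12 of the high class.

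The direction of a difference was mostly shared by the 5 conditions. Of the genes that passed in the mean, 131 of 144 higher (91.0%) and 115 of 130 lower (88.5%) had that sign in DH2 minus Superb in every condition, beside 88.2% and 84.4% of all genes that passed. With 3 libraries a group, 58 genes passed in untreated spikelets (1.27% of all tested genes), 70 after water (1.64%), 84 after SA (2.07%), 88 after ethephon (2.03%) and 75 after MeJA (1.69%). Against DH1 the counts were 63 untreated (2.66%), 112 after water (5.3%), 117 after SA (4.74%), 88 after ethephon (3.44%) and 90 after MeJA (3.12%).

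Genes with the most extreme differences were present in one genotype and nearly missing in the other. TraesCS1A01G385900 had a lowest, median and highest level of 27.6, 36.2 and 42.7 CPM in DH2, against 0, 0 and 0.108 CPM in DH1 and 0, 0 and 0.0853 CPM in Superb. Its summed counts were 6416 in DH2, 5 in DH1 and 2 in Superb, and every DH2 library lay above every other library. TraesCS1A01G360100 had 0.0630, 9.11 and 12.7 CPM in DH2, against 0, 0 and 0.188 CPM in DH1 and 0, 0 and 0.0716 CPM in Superb. The lowest DH2 value was that of DH2 untreated replicate 3, which lay among the DH1 values; the next lowest DH2 library had 3.97 CPM.

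In the other direction, TraesCS1A01G301900 had 0, 0 and 12.8 CPM in DH2, against 36.7, 41.0 and 60.1 CPM in DH1 and 30.6, 42.8 and 54.0 CPM in Superb. DH2 water replicate 1 held the 12.8 CPM and DH2 untreated replicate 2 had 5.08 CPM, while the other 13 DH2 libraries had at most 0.158 CPM. TraesCS1A01G278800 had 0, 0.105 and 3.58 CPM in DH2, against 10.2, 35.6 and 244 CPM in DH1 and 12.4, 33.1 and 277 CPM in Superb. The DH2 libraries did not overlap with those of DH1 or Superb in either gene.

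**Figure D3:**
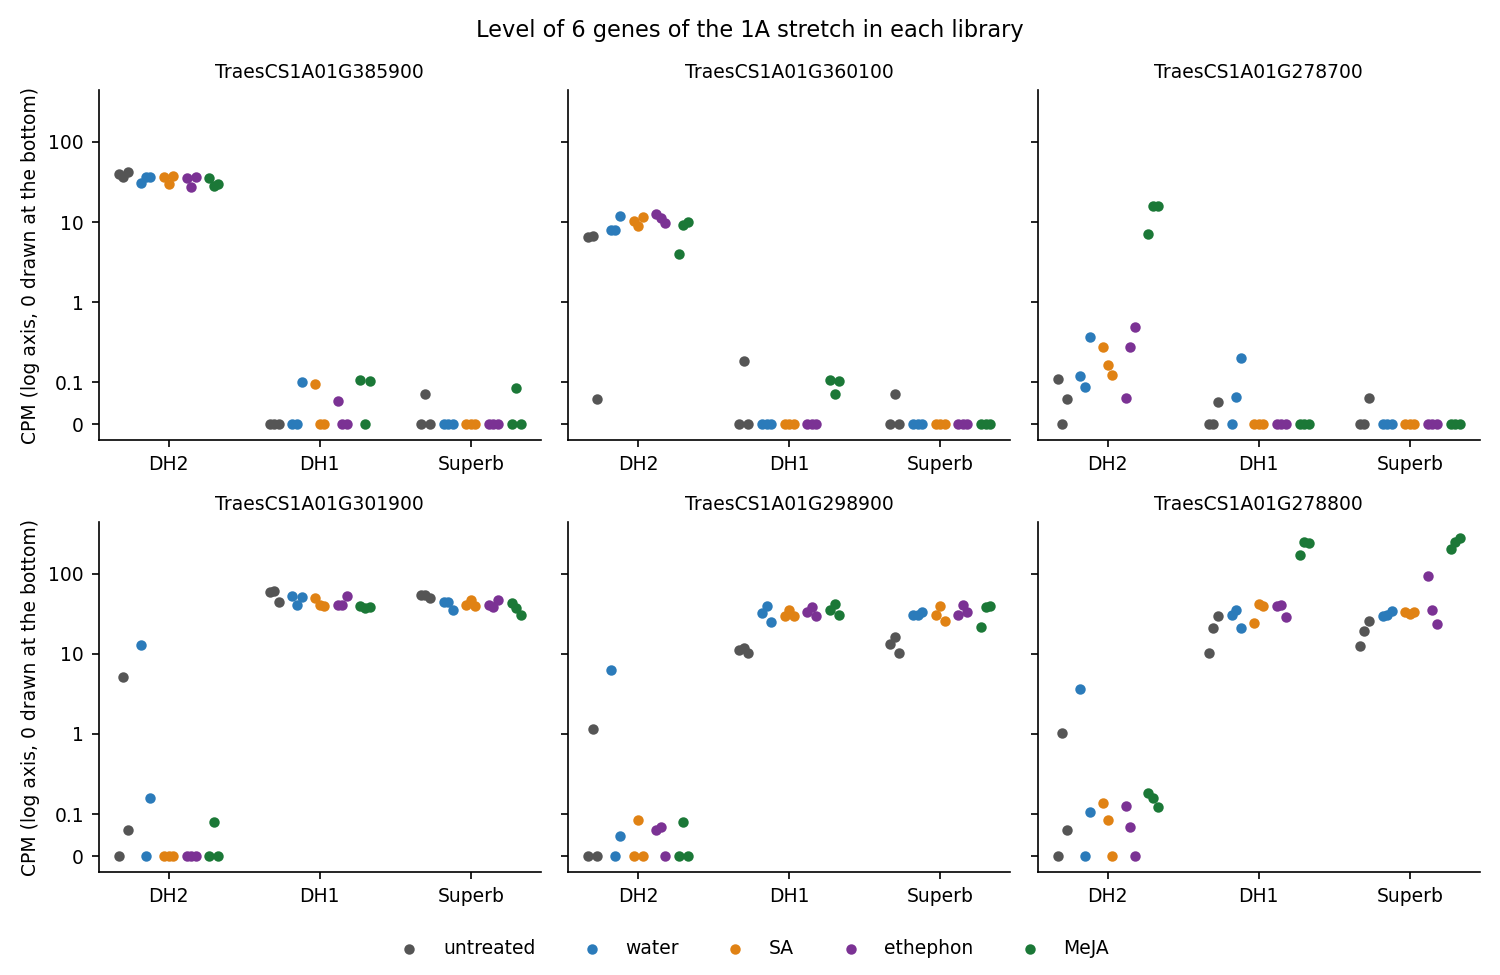
Level in CPM (vertical log axis, with 0 drawn at the bottom) of 6 genes of the stretch in each library, with DH2 left, DH1 in the middle and Superb right and 1 point per library coloured by condition. TraesCS1A01G385900, TraesCS1A01G360100 and TraesCS1A01G278700 reach 42.7, 12.7 and 15.9 CPM in DH2, while TraesCS1A01G301900, TraesCS1A01G298900 and TraesCS1A01G278800 are near 0 there in most libraries, with DH2 water replicate 1 the highest of DH2 in each, at 12.8, 6.32 and 3.58 CPM.

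Over the whole stretch, 7 genes averaged at least 1 CPM in DH2 and at most 5% of that in DH1 and Superb, of 102 such genes among all tested (0.162%). Another 6 averaged at least 1 CPM in DH1 and Superb and at most 5% of that in DH2, of 76 (0.12%). Chromosome 1A as a whole held 17 genes of the first kind and 19 of the second, so part of each lay on 1A outside the stretch. Among the 7 genes the means ran between 1.87 and 34.6 CPM in DH2, with 0 to 82 summed counts in DH1 and 1 to 6 in Superb. Among the 6 genes the summed counts were 1 to 264 in DH2, 180 to 11802 in DH1 and 180 to 11177 in Superb. No gene of the stretch was seen only in DH1 (82 genes in all, 0.13% of those tested) or missing only in DH1 (58 genes, 0.0919%). Of the 82 DH1 counts of TraesCS1A01G282600, which is named here after its values were seen, 79 lay in DH1 ethephon replicate 1 (4.66 CPM), and the other 6 genes of its set lay at 0% to 0.170% of their DH2 level in that library.

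The DH2 libraries were placed between the other genotypes and DH2 with the 45 genes that differed by at least 1.5 on the log2 scale from both DH1 and Superb, 18 higher and 27 lower in DH2. For each gene and library an index was set to 1 at the mean of the other regular DH2 libraries and 0 at the mean of the other regular DH1 and Superb libraries of the same condition, and medians were taken over 8 bins in gene order. In 12 DH2 libraries the median over all genes was 0.962 to 1.00 and bins lay at 0.795 to 1.19. The 14 regular libraries of DH1 had medians of -0.0230 to 0.0374 and bins of -0.438 to 0.436, and those of Superb medians of -0.0162 to 0.0140 and bins of -0.345 to 0.373. In untreated spikelets the DH2 level was that of replicate 1 alone, the only regular library there, and replicate 1 itself was set against the regular DH2 libraries of the other conditions. Because the same libraries chose the genes, the index describes and does not test.

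DH2 untreated replicate 3 changed along the stretch. Its bins lay at 0.95 to 1.12 as far as TraesCS1A01G330100, at 0.00 between TraesCS1A01G341900 and TraesCS1A01G367500, and at 0.53 to 0.57 in the 3 bins after that. Single genes ran between 0.79 and 1.49 in the first of these stretches (21 genes with a value), between -0.04 and 0.32 in the second (5 genes) and between 0.18 and 2.41 in the last (14 genes). In the last, 5 of the 14 lay at 0.8 or more, TraesCS1A01G385900 at 1.09 among them, so its medians cover genes near the DH2 level and genes well below it. The genes that follow were picked after their values were seen. TraesCS1A01G330100 had 33.7 CPM in this library, near the 35.2 to 43.4 CPM of the 12 regular DH2 libraries, against 4.60 to 6.06 CPM in untreated DH1 and 4.80 to 7.24 CPM in untreated Superb. TraesCS1A01G353300 had 20.6 CPM, against 4.91 and 6.33 CPM in DH2 untreated replicates 1 and 2, 18.3 to 21.5 CPM in untreated DH1 and 18.9 to 22.8 CPM in untreated Superb. TraesCS1A01G409200 had 17.4 CPM, between the 32.1 to 44.3 CPM of the regular DH2 libraries and the 10.3 to 12.1 CPM of untreated DH1 or 9.94 to 12.5 CPM of untreated Superb. DH2 water replicate 1 lay at 0.78 to 1.01 in all bins and DH2 untreated replicate 2 at 0.91 to 1.34. DH1 ethephon replicate 1 had bins between 0.000749 and 0.163.

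**Figure D4:**
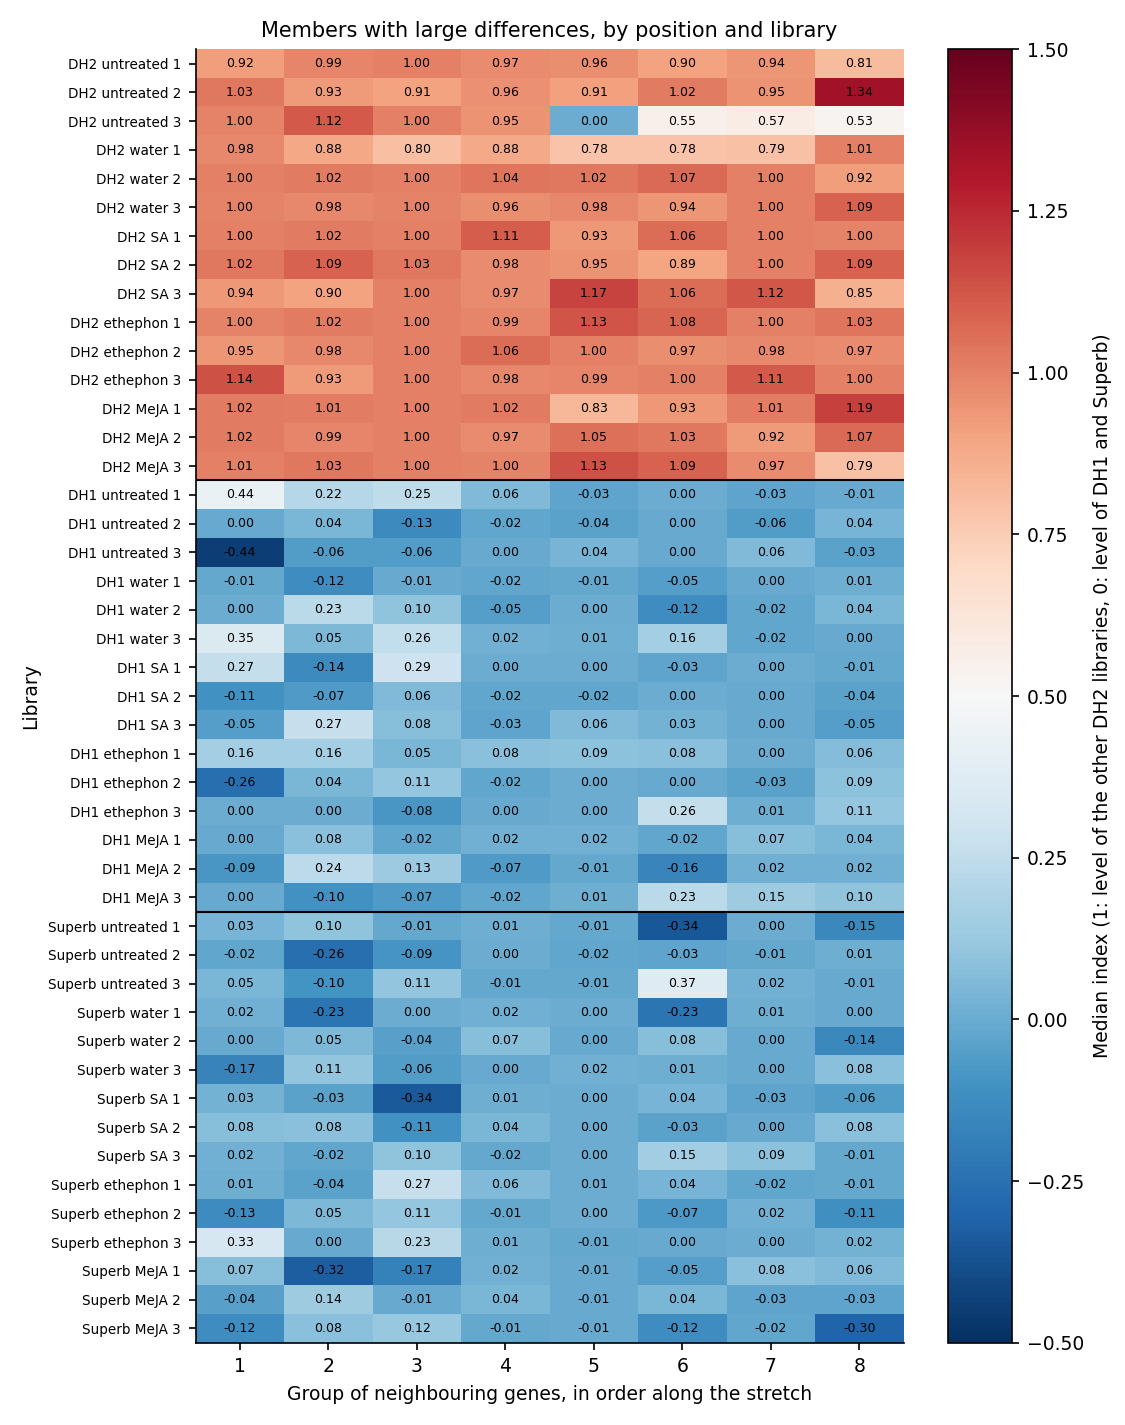
Median index in each library (rows, DH2 above DH1 and Superb) and each of 8 bins of neighbouring genes in order along the stretch (columns), where 1 is the level of the other regular DH2 libraries and 0 that of DH1 and Superb in the same condition (for DH2 untreated replicate 1, the DH2 libraries of the other conditions). The row of DH2 untreated replicate 3 reads 0.00 in the fifth bin and 0.53 to 0.57 in the last 3, and all other DH2 rows read 0.78 or more.

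DH1 and Superb differed in a smaller share of the stretch than of all tested genes. This was not particular to the stretch. The share was 2.06% in the rest of 1A, and 4.1% and 3.37% at the corresponding places on 1B and 1D. The contrast did not itself choose the stretch, but the choice set DH2 against the other genotypes and is not independent of it. By edgeR's quasi-likelihood test, 30 of 922 genes (3.25%) passed an adjusted p of 0.05, where 5.34% of all tested genes did, 16 higher (2.54% of all) and 14 lower in DH1 (2.8%). Of these, 7 had a change of at least 1 (1.66% of all tested genes), and the median size of the change was 0.107, beside 0.104 for all genes. Within conditions, 4 genes passed untreated (1.29% of all), 4 after water (1.4%), 2 after SA (1.24%), 3 after ethephon (1.24%) and 4 after MeJA (1.17%). The count over all conditions was 46 without DH1 untreated replicate 3 and 51 without Superb untreated replicate 3. Calls of all genes can move with the library left out, so these counts are not read as changes of the stretch. TraesCS1A01G386100 had a lowest, median and highest level of 1.72, 2.54 and 3.21 CPM in DH1, against 0.671, 1.48 and 3.12 CPM in Superb, and the groups overlapped (log2 fold change 0.68, SE 0.15, edgeR adjusted p = 0.00285). It averaged 2.44 ± 0.786 CPM in DH2 (SD, n = 15), near its DH1 level. TraesCS1A01G424100 averaged 2.64 ± 3.47 CPM in DH1, with a highest value of 11.3 CPM, and 5.52 ± 2.26 CPM in Superb (SD, n = 15 each, -1.54, SE 0.36, edgeR adjusted p = 0.00427). TraesCS1A01G391900 was also lower in DH1, with 0.918, 8.56 and 27.5 CPM against 3.31, 13.1 and 29.9 CPM in Superb (-0.73, SE 0.19, edgeR adjusted p = 0.0123). TraesCS1A01G369600 was higher, with 28.1, 86.4 and 212 CPM in DH1 against 15.1, 50.6 and 265 CPM in Superb (0.69, SE 0.19, edgeR adjusted p = 0.0238), but leaving out any one of DH1 SA replicate 3, DH1 MeJA replicate 1, Superb ethephon replicate 2 or Superb MeJA replicate 2 ended that call, with an adjusted p of up to 0.0665.

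MeJA changed genes of the stretch in every genotype, in shares near those of all tested genes. Against water at 8 h, 205 genes (22.2%) passed in DH2, where 23.5% of all tested genes did, 124 higher (14.3% of all) and 81 lower (9.22%). In DH1 252 genes (27.3%) passed, beside 27.7% of all genes, 149 higher (16.3% of all) and 103 lower (11.4%). In Superb 204 (22.1%) passed, beside 22.1%, 121 higher (12.5% of all) and 83 lower (9.58%). Without Superb MeJA replicate 3 the Superb count was 130, and the calls of all genes can move with that library too. Genes that rose had medians of 1.25 in DH2, 1.46 in DH1 and 1.38 in Superb on the log2 scale. A change of at least 1 was seen in 115 genes in DH2 (11.6% of all tested genes), 139 in DH1 (14.1%) and 123 in Superb (11.6%). In all 3 genotypes together, 81 genes rose (9.57% of all tested genes) and 42 fell (4.95%).

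TraesCS1A01G384300 reached 113, 196 and 283 CPM after MeJA in DH2, against 0.364, 0.971 and 0.842 CPM after water, and no MeJA library overlapped with a water library (log2 fold change 8.10, SE 0.72, edgeR adjusted p = 2.24e-11). It had 45.1, 81.8 and 83.4 CPM after MeJA in DH1 and 57.1, 110 and 109 CPM in Superb. TraesCS1A01G329500 reached 3.69, 18.1 and 28.7 CPM after MeJA in DH2, against 0.121, 0.177 and 0.0526 CPM after water (7.14, SE 0.85, edgeR adjusted p = 5.81e-09). Superb ethephon replicate 1 had 17.3 CPM of TraesCS1A01G384300, above the water levels of DH2 and below the MeJA levels of every genotype. That library had 4.96 CPM of TraesCS1A01G329500, within the range of DH2 after MeJA. The lowest fold changes of MeJA in DH2 belonged to TraesCS1A01G301900 and TraesCS1A01G298900, and both rested on DH2 water replicate 1. TraesCS1A01G298900 had 0, 0.0799 and 0 CPM after MeJA, against 6.32, 0 and 0.0526 CPM after water (edgeR adjusted p = 0.00159, and 0.990 without that library). For TraesCS1A01G301900 the edgeR adjusted p was 0.00306, and 0.753 without it.

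The response to MeJA itself was compared between DH2 and Superb. An unadjusted edgeR p under 0.05 was seen in 57 of the 922 genes, beside 2219 of all 63091 tested genes. These 2 counts take in DH2 water replicate 1 and were not repeated without it. After adjustment 1 gene of the stretch passed, TraesCS1A01G278800, where 0.0111% of all tested genes did. It is one of the genes nearly missing in DH2, and its call rested on DH2 water replicate 1. This gene had 0.185, 0.160 and 0.122 CPM after MeJA in DH2, against 3.58, 0 and 0.105 CPM after water. It had 169, 244 and 244 CPM after MeJA in DH1, against 30.3, 35.6 and 20.7 CPM after water, and 203, 246 and 277 CPM after MeJA in Superb, against 29.6, 30.0 and 34.1 CPM after water. The gene rose after MeJA in DH1 (2.92 on the log2 scale, SE 0.44, edgeR adjusted p = 1.61e-06) and in Superb (2.95, SE 0.44, edgeR adjusted p = 1.81e-06). In DH2 its value was -2.94 (SE 1.13, edgeR adjusted p = 0.0522). The difference in response, DH2 minus Superb, was -5.89 (SE 1.11, edgeR adjusted p = 0.0419), and -1.82 with an adjusted p of 1.00 without DH2 water replicate 1. For DH1 minus Superb 0 genes passed in edgeR and in DESeq2 (0% of all tested genes). There 28 of the 922 genes had an unadjusted edgeR p under 0.05, beside 2208 of all 63091 tested genes.

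Next to it in the order of listed genes stands TraesCS1A01G278700, one of the genes seen only in DH2 and singled out after its values were seen. It had 7.21, 15.9 and 15.9 CPM after MeJA in DH2, against 0.121, 0.0883 and 0.368 CPM after water, and at most 0.490 CPM in every other DH2 library. It passed the filter on low counts through its MeJA libraries of DH2 alone, so no test is given for it. It reached at most 0.201 CPM in DH1 and 0.0637 CPM in Superb, so a response there could not be fitted. The neighbouring identifiers thus held a gene that rose after MeJA in DH1 and Superb and was nearly missing in DH2, and one whose DH2 libraries were all higher after MeJA than elsewhere and that was nearly missing in DH1 and Superb. TraesCS1A01G282600, also seen only in DH2, had 38.2, 23.7 and 22.7 CPM after MeJA in DH2, against 6.19, 8.21 and 8.21 CPM after water (1.91, SE 0.41, edgeR adjusted p = 5.62e-04).

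Between water at 8 h and untreated spikelets at 0 h in DH2, 254 genes of the stretch (27.5%) passed, where 26.8% of all tested genes did, 134 higher (12.9% of all) and 120 lower (13.8%) after water, and 133 had a change of at least 1 (12.1%). Without the 5 libraries that stand apart, which leaves 1 untreated and 2 water libraries of DH2, 113 passed (12.1% of all tested genes). TraesCS1A01G290200 had 18.1, 15.9 and 20.7 CPM after water, against 0.335, 0.311 and 0.630 CPM untreated (log2 fold change 5.28, SE 0.71, edgeR adjusted p = 3.63e-07). TraesCS1A01G289200, the first gene of the block, had 1.88, 1.24 and 2.53 CPM after water, against 0.112, 0.104 and 0 CPM untreated (edgeR adjusted p = 1.76e-05, and 0.0513 without the 5 libraries). TraesCS1A01G306600 had 2.79, 2.12 and 2.74 CPM after water, against 69.3, 141 and 20.2 CPM untreated (-4.88, SE 0.59, edgeR adjusted p = 6.45e-08). TraesCS1A01G287200 had 1.15, 0.706 and 0.842 CPM after water, against 22.3, 20.0 and 25.3 CPM untreated (-4.61, SE 0.33, edgeR adjusted p = 4.63e-13). Water and untreated libraries did not overlap in these 4 genes.

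At the corresponding place on 1B and 1D the summed level was not higher in DH2 than in Superb. Genes that passed there, whatever the size of the change, made up a slightly smaller share than among all tested genes. No table of homoeologs was used here, so the counterparts are the genes at the same fraction of the gene order, 903 tested on 1B (TraesCS1B01G291500 to TraesCS1B01G464200) and 949 on 1D (TraesCS1D01G275400 to TraesCS1D01G438400), and not gene pairs. Sums were taken over all listed genes, tested or not. The 1601 listed genes of 1A summed to 14955 ± 822 CPM in DH2, 15081 ± 736 CPM in DH1 and 15093 ± 602 CPM in Superb (SD, n = 15 each). The 1B sum (1728 listed genes) was 13927 ± 1005, 14236 ± 983 and 14199 ± 843 CPM in the same order of genotypes. The 1D sum (1631 listed genes) was 15187 ± 1296, 15276 ± 1233 and 15391 ± 1056 CPM. The share of 1A in the 3 sums was 34.0% ± 0.798 in DH2, 33.9% ± 0.754 in DH1 and 33.8% ± 0.742 in Superb. All these SD take in the differences between conditions as well. Within each of the 5 conditions the mean share was slightly higher in DH2 than in Superb. After SA it was 34.15% ± 0.05 against 33.93% ± 0.09, and untreated 32.59% ± 0.55 against 32.49% ± 0.04 (SD, n = 3 each). The difference in share was not tested.

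DH2 minus Superb was -271 CPM on 1B (two-sided permutation test within conditions, p = 0.0314, adjusted over 4 tests 0.126) and -204 CPM on 1D (p = 0.156 by the same permutation test, adjusted 0.312). Both point down and neither passed after adjustment. The 1B difference did pass without DH2 water replicate 2 (-353 CPM, permutation adjusted p = 0.0103) and by the median log2 CPM of the genes in place of their sum (-0.0563, permutation adjusted p = 0.0173). DH1 minus Superb was 37.3 CPM on 1B (permutation p = 0.767, adjusted 0.767) and -115 CPM on 1D (permutation p = 0.330, adjusted 0.440). On 1B 80 genes (8.86%) passed in DH2 against Superb by edgeR, 29 higher (3.21%) and 51 lower (5.65%), and on 1D 82 (8.64%), 22 higher (2.32%) and 60 lower (6.32%). Among all tested genes 10.7% passed, 4.35% higher and 6.39% lower, so lower calls were the more frequent there too. A change of at least 1 was seen in 7 genes on each (0.775% on 1B, 0.738% on 1D). Among all tested genes 2.08% had such a change. None of the genes seen only in DH2, or missing only there, lay in the counterpart stretches.

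Along 16 windows of about 100 listed genes, the summed CPM of 1A in DH2 over Superb ran between -0.33 and 0.19 on the log2 scale, and 9 windows lay beyond 0.1 in size. In 4 of these 9 both 1B and 1D had the opposite sign, and in 4 both had the same sign. The largest drop on 1A was in the window at TraesCS1A01G340100, with 761 ± 142 CPM in DH2 and 959 ± 111 CPM in Superb (SD, n = 15 each, -0.33), where 1B had -0.04 and 1D -0.08. The window at TraesCS1A01G300100 had -0.21 on 1A and 0.04 on both others. The largest rise, 0.19 in the window at TraesCS1A01G380100, stood beside -0.04 on 1B and -0.11 on 1D. These window values were not tested.

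**Figure D5:**
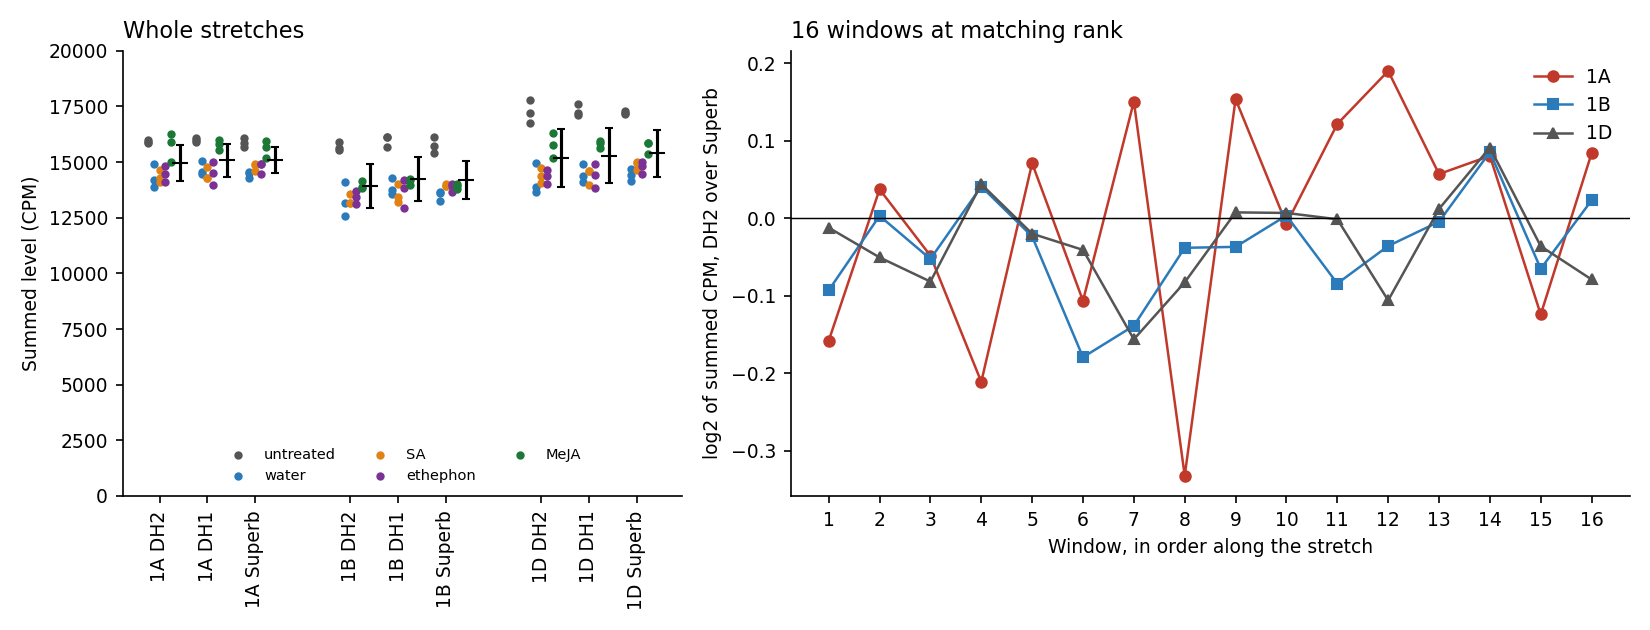
Left, summed CPM of the 1A stretch and its counterparts on 1B and 1D in each library, coloured by condition, in DH2, DH1 and Superb, with the mean and SD of 15 libraries as black bars. Right, log2 of the summed CPM of DH2 over Superb in 16 windows in gene order, where 1A runs between -0.33 and 0.19, 1B between -0.18 and 0.09 and 1D between -0.16 and 0.09.

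The counterpart genes named here had changes between -1.01 and 0.75 on the log2 scale. On 1D, TraesCS1D01G361300 had a lowest, median and highest level of 1.47, 4.33 and 7.14 CPM in DH2, against 4.01, 9.56 and 11.6 CPM in Superb (-1.01 on the log2 scale, SE 0.12, edgeR adjusted p = 5.45e-08), with 6.06 to 9.51 CPM in DH1. TraesCS1D01G389700 had a median of 5.62 CPM in DH2, 11.7 CPM in DH1 and 9.89 CPM in Superb (-0.84). On 1B, TraesCS1B01G359500 averaged 2.43 ± 0.744 CPM in DH2, 5.47 ± 1.28 CPM in DH1 and 4.11 ± 0.764 CPM in Superb (SD, n = 15 each, -0.74), and TraesCS1B01G355800 averaged 114 ± 46.7, 208 ± 60.8 and 180 ± 43.6 CPM (-0.70). All 4 passed under each alternative tried for them. Of the genes higher in DH2, TraesCS1D01G380900 averaged 4.35 ± 1.64 CPM in DH2, 2.52 ± 0.803 CPM in DH1 and 2.85 ± 1.25 CPM in Superb (0.62), and TraesCS1B01G345200 averaged 3.78 ± 2.83, 3.57 ± 2.74 and 2.70 ± 2.01 CPM (0.47). TraesCS1D01G342100 averaged 5.49 ± 5.46 CPM in DH2, with 24.8 CPM in DH2 untreated replicate 3, 3.32 ± 1.05 CPM in DH1 and 2.90 ± 0.808 CPM in Superb (0.75, and 0.52 without that library). TraesCS1B01G354000, at 14.5 ± 4.73 CPM in DH2, 10.9 ± 3.46 CPM in DH1 and 10.4 ± 5.07 CPM in Superb (0.49, edgeR adjusted p = 0.0426), did not pass when any one of 18 of the 45 libraries was left out.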

How the data were processed

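The authors deposited unscaled whole-number read counts, with genes in rows and libraries in columns. Alignment used STAR 2.5.3a, per the submitters' processing notes; these list DESeq2 too, without a role. The counting program, its strand setting and the genome build are not given here by any source, so reads of homoeologs and of overlapping or antisense genes cannot be told apart, and counts of single copies are uncertain. None of the identifiers (0) matched the RefSeq table of IWGSC CS RefSeq v2.1 used here, so the identifiers gave chromosome and order.

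The analysis used edgeR 4.0.16 in R 4.3.3. filterByExpr left 63091 genes with 99.73% of counts, libraries were scaled by TMM, and a quasi-likelihood model (glmQLFit, legacy = FALSE) with 15 group means was fitted to all 45 libraries with 30 residual degrees of freedom. A gene was called at a Benjamini-Hochberg adjusted p under 0.05 over all tested genes, and SE is the size of the log2 fold change over the square root of F. Genotypes were compared on the mean of the 5 conditions. For the block, t was 6.25%, 3 times the share of large changes (2.08%), and a stretch needed 10 of them. Summed CPM was permuted 100000 times within conditions. DESeq2 1.42.0 was an alternative. The steps were tested on simulated data.

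The members and lists were chosen with earlier results of these data known. Per comparison the called genes whose mean log2 CPM reached 1 with the 2 highest and 2 lowest fold changes are named (for DH2, called against both other genotypes), with the first and last gene of each block and the genes at the limits of the range. Replicate pairs differed by more than sampling noise (chi-square per degree of freedom 2.23 to 19.1). The labels give 5 plants per treatment group and do not tie replicates to separate plants, so p-values measure the spread between samples, which may be technical.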

Additional observations from a re-analysis of the deposited data

Results flagged for a closer look

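The interaction term for the MeJA response of TraesCS1A01G278800, DH2 minus Superb, passed at -5.89 on the log2 scale (SE 1.11, edgeR adjusted p = 0.0419). The gene was nearly missing in DH2, so its response there could hardly be measured. The MeJA and water levels were 0.122 to 0.185 CPM and 0 to 3.58 CPM in DH2, against 203 to 277 CPM and 29.6 to 34.1 CPM in Superb. Over the 45 fits that each left out 1 library the value ran between -6.52 and -1.82, the adjusted p between 0.00334 and 1.00, and the call was lost in 19. The lowest size, -1.82, came without DH2 water replicate 1, which held 59 of the counts of this gene in DH2.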

How the results depend on the processing

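Leaving out the 5 libraries that stand apart was chosen after seeing the data. It moved the count for the difference in MeJA response between DH2 and Superb to 0 and that for water against untreated DH2 to 113, and left the other counts within 1.5 times. With 3 libraries a group, the counts in untreated, water, SA, ethephon and MeJA were 58, 70, 84, 88 and 75 for DH2 against Superb, 63, 112, 117, 88 and 90 for DH2 against DH1, and 4, 4, 2, 3 and 4 for DH1 against Superb. With a change of at least 1 required, 82, 94 and 7 passed in these contrasts, 115, 139 and 123 after MeJA in DH2, DH1 and Superb, 133 for water against untreated DH2, and 7 each on 1B and 1D. Scored on any call, or on DH2 against DH1, the piece given held 173 or 129 listed genes, which largely follows from the setting of the score. By median log2 CPM in place of the sum, DH2 minus Superb on 1B passed (-0.0563), and DH1 minus Superb changed sign on 1B (-0.0271) and 1D (0.00904).

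With 1 library left out in turn, DH1 against Superb gave 21 to 51 genes, MeJA in Superb 130 to 221, and the MeJA response of DH2 minus Superb 0 to 3 (0 without DH2 water replicate 1). The 1B sum gave -353 to -201 CPM for DH2 minus Superb and -16.3 to 108 CPM for DH1 minus Superb. DH2 against Superb gave 252 to 283 genes, DH2 against DH1 321 to 348, and the block 1556 to 1773 listed genes. The calls of all tested genes can move along with these counts.

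Replicate numbers were not treated as pairs, because the labels give no shared source and not every correlation was over 0.1. Deviations of same-numbered libraries correlated at -0.118 to 0.689 between genotypes within a condition (36 of 45 pairs over 0.1) and at -0.317 to 0.220 between conditions within a genotype (6 of 18). Between genotypes a library correlated best with its own number in 71 of 90 comparisons, a hint from the data of shared variation. A replicate block within conditions gave 64 genes for DH1 against Superb (8.99% of all tested genes), and 122 on 1B and 139 on 1D (15.6% of all tested genes). Counts of few reads limit the genes near 0 CPM.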
